A study of Mus musculus with 6 samples.

Results

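The nuclear genes of the mitochondrial ribosome were examined in mouse bone marrow cells. Members were all genes whose symbol began with Mrpl or Mrps followed by a number and that had at least 1 probe set naming that gene alone. There were 76 such genes among 18193 genes tested, and each was read by whichever of its probe sets averaged highest over the 6 arrays. They comprised 49 large subunit genes, 26 small subunit genes and Mrps36. Mrps30 and Mrps18a were counted with the large subunit, where their proteins sit. Mrpl30 and Mrpl53 were read only by probe sets that name a further gene and were not tested.

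RNA had been measured on 6 Affymetrix 3' expression arrays for mouse, 2 in each of 3 groups, all of strain C57BL6. The MN1 group (n = 2 arrays) held marrow cells sorted for GFP after transduction with the gammaretroviral vector pSF91-MN1-IRES-GFP, and the MN1VP16 group (n = 2) held cells sorted likewise after transduction with pSF91-MN1VP16-IRES-GFP. MN1 is a transcriptional cofactor that causes myeloid leukaemia when overexpressed in mouse marrow, and VP16 is known as a transcriptional activator of a herpesvirus. C57BL/6J donors had received 5-fluorouracil at 150 mg/kg for 4 days, and their marrow was cultured for 48 hours with hIL6, mIL3 and mSCF. After transduction the cells went into syngeneic mice and were sorted 4 weeks later. Expression was thus driven by a retroviral vector in any marrow cell it had entered. The Gr1Mac group (n = 2) held marrow cells sorted as Gr1+ and CD11b+, markers of granulocytes and monocytes, for which the labels list the same protocols without saying whether the mice were transplanted. Values are the authors' log2 RMA values, so 1 unit is a doubling. Nothing in the labels says that the 2 arrays of a group come from different animals. The sex-linked genes given below differ between the 2 Gr1Mac arrays, so those were not repeats of 1 RNA sample. The Y-linked gene Eif2s3y read 10.40 and 7.43 log2 units on the 2 MN1VP16 arrays. The largest gap of any gene between the arrays of a group was 6.32 in MN1VP16 and 3.54 in MN1. The p-values reflect only how far these arrays spread. How much of that spread lies between animals was not tested.

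The mitochondrial ribosome translates the few proteins encoded by mitochondrial DNA, all of them subunits of the respiratory chain and ATP synthase. Its RNAs come from mitochondrial DNA, whereas all its proteins are encoded in the nucleus, made in the cytosol and imported. Many of its proteins have no relative in the bacterial ribosome. Here 30 members were of this mitochondria-specific kind and 45 had a bacterial homologue. Mature granulocytes are known for few mitochondria and a metabolism that leans on glycolysis, and growing blood progenitors for higher protein synthesis.

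The arrays differed in ways that touch every result below. All 8 measured neutrophil and monocyte markers read above 5.84 log2 units on all 6 arrays. That level is the highest reading of Xist, an RNA made from the inactive X chromosome, on the arrays with high Y-linked genes, and it served as a guide to the background. The mean of these markers was 12.98 and 12.36 on the MN1 arrays, 13.81 and 13.43 on the MN1VP16 arrays, and 14.21 and 14.15 on the Gr1Mac arrays. The mean of 7 stem and progenitor markers lay between 11.16 and 11.30 in MN1, between 9.59 and 10.23 in MN1VP16 and between 6.41 and 6.59 in Gr1Mac, where Cd34, Gata2, Hoxa9 and Meis1 were at or under 5.84 on both arrays. The mean of 4 mast cell and basophil markers ranged from 10.63 to 11.51 in MN1, from 8.99 to 10.2998 in MN1VP16 and from 5.0142 to 5.91 in Gr1Mac. The mean of 4 erythroid markers ranged from 11.85 to 12.29 in MN1, from 8.94 to 9.86 in MN1VP16 and from 6.69 to 7.11 in Gr1Mac. That of 5 proliferation markers lay between 10.89 and 11.71 on all arrays. Of these 5 only Mcm2 was called, higher than in Gr1Mac by 1.86 log2 units in MN1 and by 1.38 in MN1VP16. Xist was high on both MN1 arrays and on Gr1Mac array 1. Y-linked genes were high on Gr1Mac array 2 and on both MN1VP16 arrays. Hybridisation spikes (BioC, BioDn and CreX) read higher on MN1VP16 array 1 and both MN1 arrays (10.93 to 11.285 on average) than on the other 3 arrays (9.08 to 9.69). The part of these differences in the results was not tested beyond the fits given beside them. In such bulk samples, fewer cells of a type and less RNA per cell cannot be told apart.

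The members were read at moderate to high levels. The mean of a gene over the 6 arrays ranged from 7.0045 to 11.84 log2 units with a median of 9.33, against a median of 6.51 over all genes tested. The exception in a single group was Mrps6, whose Gr1Mac mean lay under 5.84. Since probe sets differ in affinity, these readings do not order the genes by abundance. The mean over the 76 members was 9.60 and 9.74 on the MN1 arrays, 9.26 and 9.16 on the MN1VP16 arrays, and 9.03 and 8.30 on Gr1Mac arrays 1 and 2. The members therefore lay highest in MN1, and the widest gap inside a group was in Gr1Mac. MN1 array 2 held the highest value for 57 members, and Gr1Mac array 2 held the lowest for 72.

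The 2 Gr1Mac arrays disagreed on this family more than on other genes. All 76 members read higher on Gr1Mac array 1 than on array 2, with a median gap of 0.70 log2 units, while 53.5% of all genes tested did so with a median gap of 0.04. Among the 7640 genes within the members' range of levels, 71.1% read higher on Gr1Mac array 1, with a median gap of 0.26. The corresponding gaps were small in the other groups, with medians of -0.10 in MN1 and 0.09 in MN1VP16. The choice of Gr1Mac array therefore set the size of each difference from Gr1Mac, and both are given below.

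**Figure D1:**
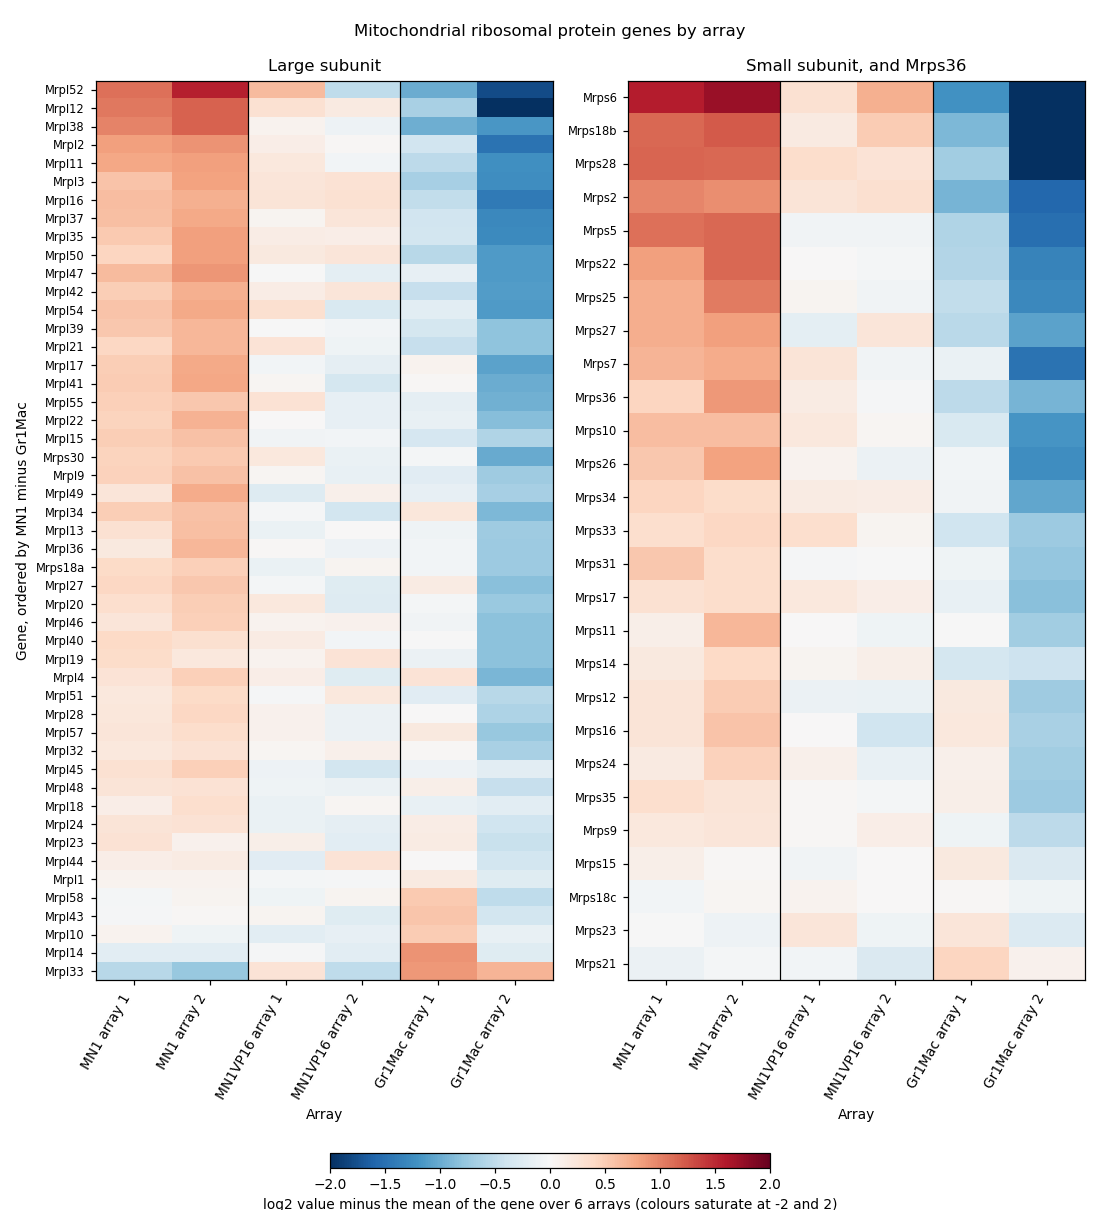
Deviation of each of the 76 genes from its own mean over the 6 arrays (colour, log2 units), by gene (rows, ordered by the MN1 minus Gr1Mac difference within each panel) and array (columns). The MN1 columns are mostly above the gene means, Gr1Mac array 2 holds the lowest value for 72 genes, and Mrpl33 at the foot of the large subunit panel runs the other way.

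The first comparison asked how cells carrying MN1 differed from Gr1Mac cells. Of the 76 members, 37 rose in MN1 and 1 fell by limma at an adjusted p under 0.05, against 17.3% of all genes tested called higher and 12% called lower. The largest rises were those of the small subunit proteins Mrps6, Mrps18b and Mrps28 and the large subunit proteins Mrpl52 and Mrpl12. The gene that fell was Mrpl33, a small protein of the large subunit. The median difference over the members was 0.87 log2 units, against -0.06 over all genes, and 69 of 76 differences were above 0, against 44.5% of all genes. Most genes tested were dimmer than the members. Among the 7640 genes within the members' range of levels, 27.91% were called higher, the median difference was 0.15 and 4238 differences were above 0. Both MN1 arrays lay above both Gr1Mac arrays for 64 members and below both for 2, against 30.9% and 35.8% of all genes and 3475 and 2639 of these 7640. These 37 differences ranged from 0.68 to 3.81 log2 units, with adjusted p-values between 0.00129 and 0.0492.

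In the small subunit, which binds the mRNA and reads its codons, 14 of 26 genes rose and 0 fell. Of all genes tested 17.3% were called higher and 12% lower. At an unadjusted p under 0.05 by limma were 18 of the 26, against 7243 of all 18193 genes. Mrps6, whose bacterial relative sits on the platform of the subunit, read 9.28 and 9.44 log2 units in MN1 and 6.497 and 4.61 in Gr1Mac. Its MN1 readings lay close together while its Gr1Mac readings were far apart, and the groups did not overlap. With the Gr1Mac mean under 5.84, Mrps6 was at least 9.15-fold higher in MN1 by group means (limma adjusted p = 0.00550). Here and below, such a bound allows for background and not for the spread between arrays. Mrps18b, one of several mammalian relatives of a single bacterial protein and counted here as mitochondria-specific for its own place in the ribosome, read 9.77 and 9.86 in MN1 against 7.72 and 6.47 in Gr1Mac. It was 6.57-fold higher (95% interval 3.34 to 12.9, limma adjusted p = 0.0051).

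Mrps28 read 10.05 and 10.04 log2 units in MN1 and 8.19 and 6.66 in Gr1Mac. Its groups stood apart, again with the wider spread in Gr1Mac, and it rose by 2.62 ± 0.47 log2 units (SE). Mrps2, whose bacterial relative joins the head and the body of the subunit, read 9.78 and 9.75 in MN1 against 7.89 and 7.24 in Gr1Mac. Mrps2 was 4.59-fold higher (95% interval 3.08 to 6.82, limma adjusted p = 0.00221) and had tight readings in MN1. Mrps5, whose bacterial relative lines the entry of the mRNA channel, read 8.60 and 8.66 in MN1 and 6.90 and 6.00 in Gr1Mac, a rise of 2.18 ± 0.30 log2 units. Mrps22, a mitochondria-specific protein mutated in inherited mitochondrial disease in humans, rose by 1.94 ± 0.28, and Mrps27, a pentatricopeptide repeat protein, by 1.58 ± 0.25. Mrps14 rose least among the called small subunit genes, reading 12.04 and 12.24 in MN1 and 11.49 and 11.42 in Gr1Mac, a difference of 0.68 ± 0.16.

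The other 12 small subunit genes were not called. Mrps12, whose bacterial relative lies at the decoding centre, read 9.30 and 9.55 in MN1 and 9.24 and 8.33 in Gr1Mac (limma adjusted p = 0.184). Its Gr1Mac array 1 value was close to the lower MN1 value. Mrps18c, the closest mouse relative of the bacterial protein to which Mrps18b is also related, read 10.94 and 11.04 in MN1 and 11.03 and 10.90 in Gr1Mac. For Mrps18c the groups overlapped and the difference was 0.02 with a 95% interval from -0.35 to 0.39. Mrps21 lay 0.34 lower in MN1 and was not called (limma adjusted p = 0.238).

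In the large subunit, which joins amino acids and lets the new protein out through a tunnel, 22 of 49 genes rose and 1 fell. Of all genes tested 17.3% were called higher and 12% lower. Mrpl52, a mitochondria-specific protein, read 10.87 and 11.33 log2 units in MN1 and 8.78 and 7.98 in Gr1Mac. It was 6.59-fold higher (95% interval 3.09 to 14.1, limma adjusted p = 0.00716), with no overlap. Mrpl12, a protein of the stalk that draws in translation factors and one that binds the mitochondrial RNA polymerase in humans, read 9.86 and 9.98 in MN1 against 8.15 and 6.75 in Gr1Mac. It was 5.55-fold higher (95% interval 2.67 to 11.5, limma adjusted p = 0.0087), and the Gr1Mac arrays were far apart.

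Mrpl38, a mitochondria-specific protein of the central protuberance, had the lowest adjusted p of the family (limma, 0.00129). It read 8.41 and 8.60 log2 units in MN1 and 6.44 and 6.26 in Gr1Mac, where both arrays were low, and it was 4.46-fold higher (95% interval 3.35 to 5.92). Mrpl2 and Mrpl3, core proteins whose bacterial relatives lie near the site of peptide bond formation, rose by 1.79 ± 0.35 and 1.64 ± 0.23 log2 units. Mrpl11, at the base of the stalk, rose by 1.67 ± 0.26, and Mrpl10, which anchors the stalk, lay 0.19 lower in MN1 and was not called (limma adjusted p = 0.619). Members of a single structure thus had different calls. Mrpl1, which forms a mobile stalk, read 7.45 and 7.46 in MN1 and 7.56 and 7.14 in Gr1Mac, with overlap and no call. A dimmer probe set of Mrpl1, with a mean of 6.22, was called 0.63 higher (limma adjusted p = 0.0262 over all single-gene probe sets). Mrpl54, among the dimmest readings, rose by 1.34 (limma adjusted p = 0.0361). Mrps30 and Mrps18a, the large subunit proteins with small subunit names, lay 1.01 and 0.82 higher without a call (limma adjusted p = 0.069 and 0.0566). Of proteins around the tunnel exit, Mrpl22 and Mrpl47 rose by 1.07 ± 0.26 and 1.40 ± 0.33, while Mrpl23 and Mrpl24 lay 0.33 and 0.40 higher and were not called.

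**Figure D2:**
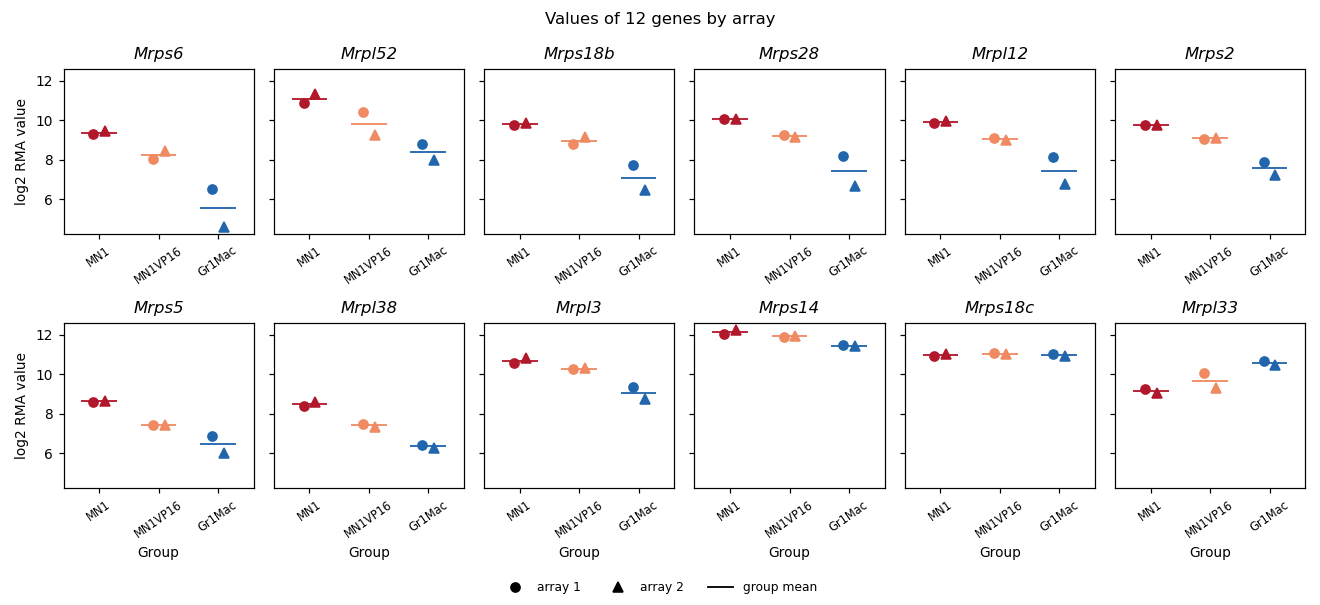
Log2 RMA values (vertical axis) of 12 genes in the MN1, MN1VP16 and Gr1Mac groups (horizontal axis), with array 1 as circles, array 2 as triangles and the group mean as a line. Mrps6 reads 9.28 and 9.44 in MN1 and 6.497 and 4.61 in Gr1Mac, Mrps18c overlaps between groups, and Mrpl33 is lower in MN1 than in Gr1Mac.

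Mrpl33 read 9.24 and 9.04 log2 units in MN1 and 10.67 and 10.49 in Gr1Mac. Both MN1 arrays were low and both Gr1Mac arrays high, and it was 2.71-fold lower in MN1 (limma difference -1.44 ± 0.28 log2 units, adjusted p = 0.0126). Its second probe set was dim, with a mean of 5.21, and lay 0.47 lower without a call (limma adjusted p = 0.134 over all single-gene probe sets). Other members with differences below 0 were Mrpl14, Mrps21, Mrpl10, Mrpl43, Mrps23 and Mrpl58, and none of these 6 was called. Mrpl14, which in humans is bound by the silencing factor MALSU1, read 7.57 and 7.58 in MN1 and 8.68 and 7.55 in Gr1Mac, so its groups overlapped. Mrpl58, a peptidyl-tRNA hydrolase that rescues stalled ribosomes, read 9.35 and 9.45 in MN1, between its Gr1Mac values of 9.92 and 8.89. Mrps36, which carries a ribosomal name but is a subunit of the oxoglutarate dehydrogenase complex, read 8.61 and 9.05 in MN1 and 7.66 and 7.25 in Gr1Mac and was 2.595-fold higher (95% interval 1.76 to 3.83, limma adjusted p = 0.00747).

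Rises in MN1 were spread over both subunits and both origins. Of all genes tested 17.3% were called higher and 12% lower, and of genes within the members' range of levels 27.91% were called higher. Among mitochondria-specific proteins 16 of 30 rose and 0 fell, with a median difference of 0.95 log2 units. Among proteins with a bacterial homologue 20 of 45 rose and 1 fell, with a median of 0.82. The median was 0.90 over the small subunit and 0.86 over the large subunit. Of the classes with both subunit and origin, the highest median was that of the 10 mitochondria-specific proteins of the small subunit, at 1.14 with 7 of 10 called higher; these classes were not tested against each other.

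Leaving out an array moved the differences, and it can change the number of calls over all genes. Against Gr1Mac array 1 alone the median difference was 0.52 and 66 of 76 were above 0, against 48.46% of all genes. Against Gr1Mac array 2 alone the median was 1.2 and 74 were above 0, against 43.75% of all genes. Without MN1 array 1 the median was 0.99, and without MN1 array 2 it was 0.83. The call of Mrpl33 was lost without MN1 array 2 and against either Gr1Mac array alone, while Mrpl14 was called lower against Gr1Mac array 1 alone. Mrps2, Mrps5, Mrps6, Mrps18b, Mrps22, Mrps27, Mrpl3, Mrpl11 and Mrpl38 were called in all 4 of these fits. Spikes read high on both MN1 arrays and low on both Gr1Mac arrays, so a spike block takes the spike difference from the 2 MN1VP16 arrays alone. With that block 3 members were called higher (Mrps2, Mrps27 and Mrpl38). The median difference was 0.80, and it lay 0.85 above that of all genes. The sex pattern as a block gives the comparison with Gr1Mac array 1 alone. Centring arrays on their medians shifted the median of all genes to -0.32. Centring moves every difference alike, so the members' median necessarily stayed 0.93 above that of all genes, and this distance is no check. With that centring 30 members were called higher and 2, Mrpl33 and Mrps21, lower, while the share of higher calls among all called genes was 38.3%, against 59.0% without it.

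**Figure D3:**
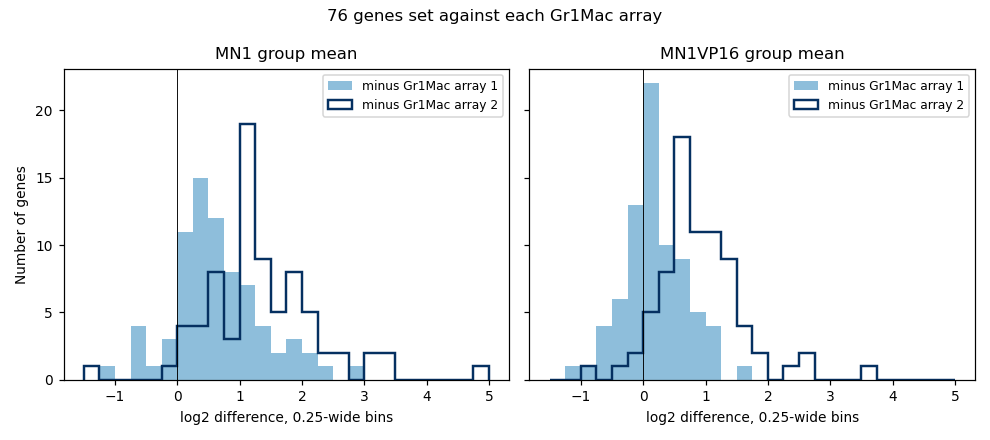
Number of genes (vertical axis) by log2 difference (horizontal axis, bins 0.25 wide) of the MN1 mean (left) and the MN1VP16 mean (right) from Gr1Mac array 1 (filled) and Gr1Mac array 2 (outline). The medians are 0.52 and 1.2 in MN1 and 0.08 and 0.78 in MN1VP16, from Gr1Mac arrays 1 and 2 in that order.

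The promoters of members that differed together are shown for the motifs they hold, since factors that bind such motifs are known regulators of mitochondrial genes. RefSeq promoters (GRCm38.p6, 250 bases before to 50 bases from the start on) were found for 67 of the 76 members, 73 promoters in all. The motif CCGGAAG, which ETS factors such as GABP bind, was in 34.2% of these promoters on either strand, against 8.86% of all 32851 promoters and 13% of the promoters of genes tested. It was in 10 of 32 members that rose in MN1 and in 15 of 35 other members. The motif CACGTG, the E-box that Myc binds with Max, was in 9.59% of the members' promoters, 7.15% of all and 8.72% of those of genes tested. Mrpl2 has 3 overlapping promoters that share an E-box, and counted by gene 5 of 67 members held it (7.46%), against 10.2% of genes tested that have a promoter in the table. The E-box was thus no more frequent in the family by gene. The NRF1 motif GCGCATGCG was in 9.59% of the members' promoters, 1.75% of all and 2.69% of those of genes tested, and the YY1 motif AAGATGGCG in 11%, 1.4% and 2.09%. Counted by gene, the ETS motif was in 37.3% of members and 15% of genes tested. Both strands were searched for each motif. Overlaps between motifs were not removed. These matches are letters in a window and show no binding. Each sequence below reads 5′ to 3′ on the strand of the gene, with motif matches in capitals. The first 5 run from 100 bases before the start to 10 bases from it on, and Mrpl2 from 160 to 61 bases before it.
Mrps6 (chr16:92058236-92058345, plus strand; largest rise, no match in this window): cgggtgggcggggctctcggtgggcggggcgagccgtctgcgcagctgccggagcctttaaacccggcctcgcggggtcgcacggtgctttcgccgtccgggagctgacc
Mrpl52 (chr14:54426809-54426918, plus strand; rose, ETS motif at 2 places): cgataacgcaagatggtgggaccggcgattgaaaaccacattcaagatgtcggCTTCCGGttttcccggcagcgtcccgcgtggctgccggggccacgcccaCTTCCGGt
Mrps22 (chr9:98601670-98601779, minus strand; rose, ETS motif): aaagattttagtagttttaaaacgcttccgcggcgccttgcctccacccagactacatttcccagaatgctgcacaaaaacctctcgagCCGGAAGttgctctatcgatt
Mrpl3 (chr9:105053168-105053277, plus strand; rose, ETS motif): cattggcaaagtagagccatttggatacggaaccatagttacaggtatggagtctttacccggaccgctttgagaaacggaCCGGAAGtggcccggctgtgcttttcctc
Mrpl33 (chr5:31613851-31613960, plus strand; fell, ETS motif): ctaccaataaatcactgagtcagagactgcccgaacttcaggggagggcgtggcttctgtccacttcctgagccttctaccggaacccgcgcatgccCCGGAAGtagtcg
Mrpl2 (chr17:46646061-46646160, plus strand; rose, E-box): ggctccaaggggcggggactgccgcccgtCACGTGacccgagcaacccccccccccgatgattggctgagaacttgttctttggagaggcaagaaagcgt
The ETS motif was thus present both in members that rose, such as Mrpl3, and in Mrpl33, which fell.

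The second comparison asked how cells carrying MN1VP16 differed from Gr1Mac cells. Of the 76 members 3 rose and 0 fell by limma, with 30 at an unadjusted p under 0.05, against 4312 of all 18193 genes. Of all genes 3.66% were called higher, 2.11% lower and 5.77% in either direction, and of the 7640 genes within the members' range of levels 6.47% were called higher. The members' count is thus near the share over all genes and below that of genes as bright. The 3 that rose were Mrps2, Mrpl38 and Mrpl3. Mrps2 read 9.07 and 9.13 log2 units in MN1VP16 against 7.89 and 7.24 in Gr1Mac and was 2.89-fold higher (95% interval 1.94 to 4.30, limma adjusted p = 0.0267). Mrpl38 read 7.49 and 7.33 in MN1VP16 against 6.44 and 6.26 in Gr1Mac, a rise of 1.06 ± 0.17 log2 units (limma adjusted p = 0.0280). Mrpl3 read 10.25 and 10.30 in MN1VP16 against 9.35 and 8.77 in Gr1Mac, a rise of 1.22 ± 0.23 (limma adjusted p = 0.0412). For each of these genes the 2 groups stood apart.

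Over the family the differences from Gr1Mac were smaller in size here. The median difference was 0.42 log2 units, against -0.0005 over all genes and 0.06 over genes within the members' range of levels, and 68 of 76 were above 0, against 49.9% of all genes. Both MN1VP16 arrays lay above both Gr1Mac arrays for 38 members and below both for 3, against 24.8% and 25.2% of all genes. Mrps6 read 8.02 and 8.43 in MN1VP16 against 6.497 and 4.61 in Gr1Mac, and Mrps18b read 8.81 and 9.13 against 7.72 and 6.47. Neither was called despite groups that stood apart (limma adjusted p = 0.0548 and 0.0534). The second, dimmer probe set of Mrps6 was called, with a difference of 1.13 (limma adjusted p = 0.0463 over all single-gene probe sets), as was a second set of Mrpl11, at 1.2007 (adjusted p = 0.031). Mrpl33 read 10.08 and 9.29 in MN1VP16 against 10.67 and 10.49 in Gr1Mac, with the MN1VP16 arrays far apart, and lay 0.90 lower without a call (adjusted p = 0.121 by limma). By subunit, 2 of 49 large and 1 of 26 small subunit genes rose, against 3.66% of all genes.

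The choice of Gr1Mac array moved these differences most. Against Gr1Mac array 2 alone, which is also the fit with the sex pattern as a block, the median difference was 0.78. There 72 of 76 differences were above 0, against 47.37% of all genes. Against Gr1Mac array 1 alone the median was 0.08 and 51 of 76 differences were above 0, against 52.08% of all genes. The median was 0.42 without MN1VP16 array 1 and 0.51 without MN1VP16 array 2. None of the 3 calls held in all 4 of these fits. With centred arrays 5 members were called higher and Mrpl33 lower, and the share of higher calls among all called genes was 35.9%, against 63.4% without centring.

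**Figure D4:**
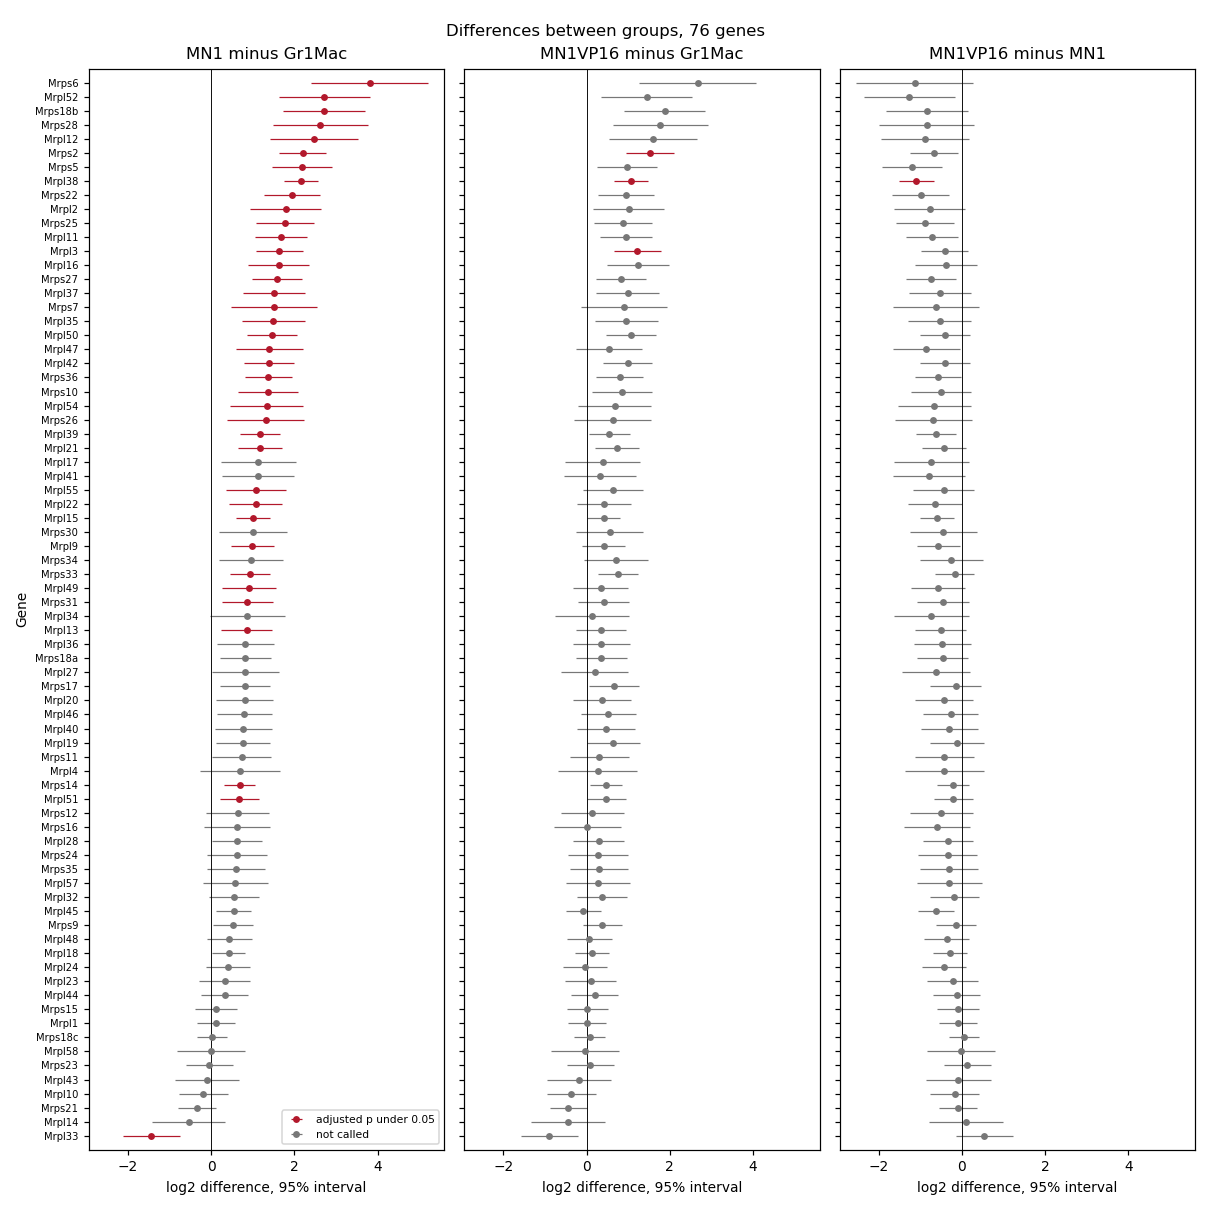
Log2 differences of the 76 genes (horizontal axes, points with 95% intervals from limma) by gene (rows) for 3 differences, left to right MN1 from Gr1Mac, MN1VP16 from Gr1Mac and MN1VP16 from MN1; red marks an adjusted p under 0.05. In the first panel 37 genes are called higher and Mrpl33 lower, in the second 3 are called higher, and in the third Mrpl38 is called lower.

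The third comparison set MN1VP16 cells against MN1 cells. By limma 0 members rose and 1, Mrpl38, fell. Of all genes 1.15% were called higher, 2.7% lower and 3.85% in either direction. At an unadjusted p under 0.05 by limma were 14 of the 76 members, a smaller share than the 4091 of 18193 genes tested. Mrpl38 read 7.49 and 7.33 log2 units in MN1VP16 and 8.41 and 8.60 in MN1. Both MN1VP16 arrays were below both MN1 arrays, and the gene was 2.14-fold lower (limma difference -1.09 ± 0.17 log2 units, adjusted p = 0.0330). Mrps5 read 7.43 on both MN1VP16 arrays and 8.60 and 8.66 in MN1, a difference of -1.2 ± 0.30 log2 units that was not called (limma adjusted p = 0.0844). Mrpl52 and Mrps6 had differences of -1.27 and -1.14 without a call (limma adjusted p = 0.169 and 0.319). The 95% interval of Mrps6 ran from -2.55 to 0.27, so these arrays do not fix its size.

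Differences below 0 were found for 72 of the 76 members, with a median of -0.45 log2 units, while 53.4% of all genes had a difference above 0 and their median was 0.03. Among the 7640 genes within the members' range of levels the median was -0.12. Both MN1VP16 arrays lay below both MN1 arrays for 65 members, and above them for 1, against 29.2% and 30.5% of all genes and 3318 and 2099 of these 7640. The 4 members with differences above 0 were Mrpl33, Mrps23, Mrpl14 and Mrps18c. Without any 1 of the 4 arrays the median lay between -0.53 and -0.36, and the call of Mrpl38 was lost in each of these fits. MN1 arrays were all high in Xist and MN1VP16 arrays all high in Y-linked genes. With the sex pattern as a block, which takes the sex difference from the 2 Gr1Mac arrays, the median turned to 0.28, 59 of 76 differences were above 0, and 0 genes of the whole table were called. Construct and sex pattern cannot be told apart in this comparison. The call of Mrpl38 was also lost with the replicate block. The spike pattern as a block gives the fit without MN1VP16 array 2 here, so it is no further check.

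Other proteins of the mitochondrial ribosome, which carry unrelated names, were read beside the family. The list also held Oxa1l, which is not a protein of the ribosome. Of the 5 genes measured, 4 rose in MN1 against Gr1Mac and 0 fell, against 17.3% of all genes tested called higher and 12% lower. Among the 7640 genes within the members' range of levels 27.91% were called higher. In MN1VP16 against Gr1Mac 3.66% of all genes were called higher and 2.11% lower, and against MN1 1.15% and 2.7%. The same shares apply to the lists below. Gadd45gip1, a large subunit protein, read 9.11 and 9.32 log2 units in MN1 and 7.51 and 5.43 in Gr1Mac, a rise of 2.75 (limma adjusted p = 0.0206), again with a wide gap between the Gr1Mac arrays. Ptcd3, a pentatricopeptide repeat protein of the small subunit, rose by 1.53, Chchd1 by 1.08 and Dap3, a GTP-binding protein of the small subunit, by 0.89. Oxa1l, the membrane insertase to which the ribosome docks, was not called at 0.97 (limma adjusted p = 0.0991). In MN1VP16 against Gr1Mac and against MN1 0 of the 5 were called, and 0 and 2 were at an unadjusted p under 0.05 by limma. Of all 18193 genes, 4312 and 4091 were under that p.

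Factors that build the ribosome rose in MN1 against Gr1Mac in 14 of 24 genes and fell in 2, with a median of 1.12 log2 units. Of all genes tested 17.3% were called higher and 12% lower. C1qbp, a matrix protein that binds RNA, read 13.92 on average in MN1 and 10.75 in Gr1Mac, a rise of 3.18 (limma adjusted p = 0.00395), and Fastkd2 rose by 2.44. The methyltransferase Tfb1m, which modifies the small ribosomal RNA, rose by 2.13, and the GTPase Noa1 by 2.03. The 2 that fell were Rbfa, an assembly factor of the small subunit, by 0.80, and Mterf4, a partner of the ribosomal RNA methyltransferase Nsun4, by 0.65. In MN1VP16 against Gr1Mac 3 of 24 rose (C1qbp, Tfb1m and Mrm3), and against MN1 the methyltransferase Mrm1 fell by 1.03 log2 units (limma adjusted p = 0.0355).

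Translation factors of mitochondria rose in MN1 against Gr1Mac in 10 of 13 genes, and 0 fell, against 17.3% and 12% of all genes tested. Lrpprc, which stabilises mitochondrial mRNAs, rose by 2.41 log2 units and its partner Slirp by 1.31, the initiation factor Mtif2 by 1.70, and the elongation factors Tsfm and Gfm1 by 1.4994 and 1.36. Guf1, a ribosome-binding GTPase, was at least 3.33-fold higher. The elongation factor Tufm had log2 values of 10.01 and 10.19 in MN1, of 9.497 and 11.896 in MN1VP16, and of 9.44 and 8.898 in Gr1Mac. Its MN1VP16 arrays lay far apart and it was not called in any comparison (limma adjusted p = 0.403 for MN1 against Gr1Mac). In MN1VP16 against Gr1Mac Mtif2 rose by 1.00 log2 units and Guf1 was at least 1.38-fold higher, and Guf1 fell by 1.27 log2 units in MN1VP16 against MN1.

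Enzymes that charge mitochondrial tRNAs rose in MN1 against Gr1Mac in 14 of 19 genes, and 0 fell, against 17.3% and 12% of all genes tested. Lars2, for leucine, rose by 2.50 log2 units and Iars2, for isoleucine, by 2.33, and Nars2, for asparagine, was at least 4.32-fold higher. Mars2, for methionine, is among the 14 although both group means, 4.31 in MN1 and 3.17 in Gr1Mac, lay under 5.84. In MN1VP16 against Gr1Mac Lars2 and Rars2, for arginine, rose by 1.40 and 0.87. Against MN1 0 of 19 were called, with 11 at an unadjusted p under 0.05 by limma, against 4091 of all 18193 genes. Among 15 genes that copy or transcribe mitochondrial DNA or, as Elac2, Trmt10c and Hsd17b10 do, process the tRNA ends of its transcripts, 10 rose in MN1 against Gr1Mac and 0 fell. These included the packaging and transcription factor Tfam, by 1.38, the RNA polymerase Polrmt, by 0.78, and the topoisomerase Top1mt, at least 5.00-fold higher. In MN1VP16 against Gr1Mac Top1mt was at least 2.01-fold higher and Mterf2 was called higher with both means at or under 5.84. In MN1VP16 against MN1 2 of the 15 fell, Top1mt by 1.32 log2 units while Mterf2, a termination factor relative, was at least 2.78-fold lower.

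Regulators of mitochondrial genes were mixed. In MN1 against Gr1Mac 3 of 9 rose (33.33%) and 1 fell, against 17.3% and 12% of all genes tested. Among genes within the members' range of levels 27.91% were called higher, so this count is near that share. Myc, which drives ribosome and mitochondrial gene expression, had log2 values of 11.17 and 10.91 in MN1, of 9.22 and 8.86 in MN1VP16, and of 7.07 and 6.23 in Gr1Mac. The groups stood apart in each pairing, and Myc was called in all 3 comparisons (limma adjusted p = 0.00116 for MN1 against Gr1Mac, 0.0204 for MN1VP16 against Gr1Mac and 0.0335 for MN1VP16 against MN1). Pprc1, a coactivator of the PGC-1 family, rose by 3.08 in MN1 against Gr1Mac and by 1.62 in MN1VP16 against Gr1Mac (limma adjusted p = 0.00235 and 0.0495). Its relative Ppargc1b rose by 0.67 in MN1 against Gr1Mac, and the transcription factor Nrf1 fell by 0.56. Gabpa, Gabpb1, Yy1 and Esrra were not called in any of the 3 comparisons. All of these lists were drawn up with earlier results of these data known.

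**Figure D5:**
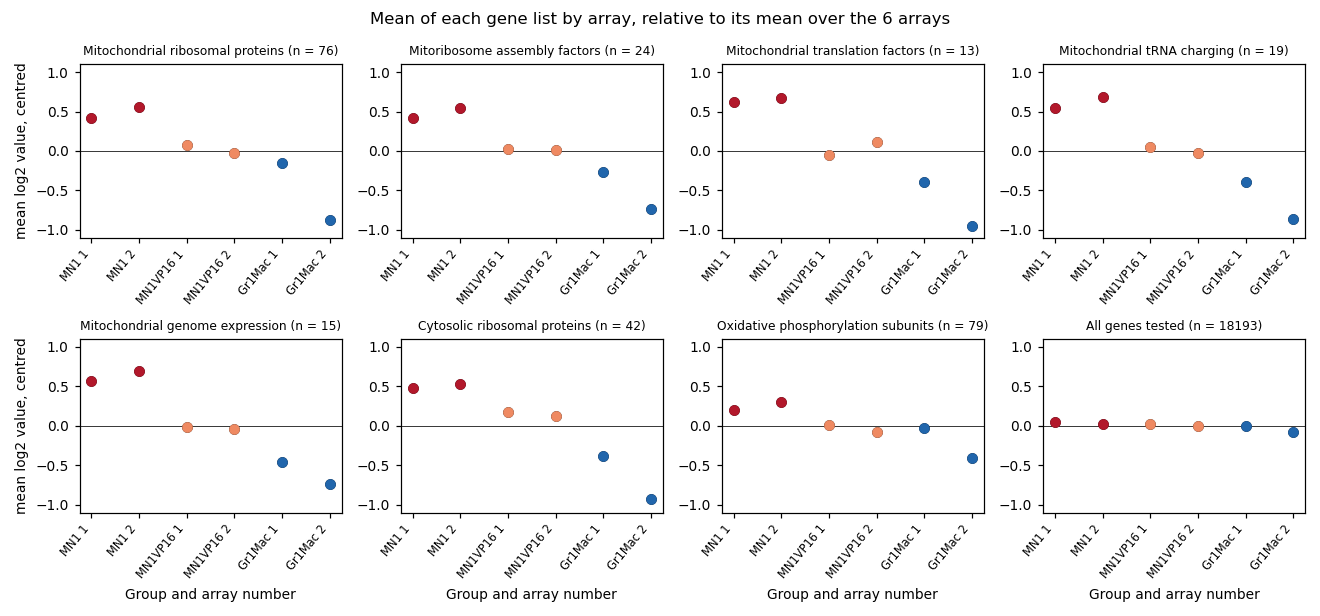
Mean log2 value of 8 gene lists by array (horizontal axis), each shown relative to its own mean over the 6 arrays (vertical axis, log2 units). The mitochondrial ribosomal protein genes average at least 9.60 on the MN1 arrays, at most 9.26 on the MN1VP16 arrays and at most 9.03 on the Gr1Mac arrays, and Gr1Mac array 2 is the lowest array in every panel.

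Related families are set beside the mitochondrial ribosome. In MN1 against Gr1Mac the mitochondrial ribosomal protein genes had a median difference of 0.87 with 37 of 76 called higher, the cytosolic ribosomal protein genes a median of 1.13 with 33 of 42 called higher, and the nuclear subunits of oxidative phosphorylation a median of 0.39 with 23 of 79 called higher. Of all genes tested 17.3% were called higher there. Among genes within the members' range of levels the share was 27.91%, near the 29.11% of the oxidative phosphorylation subunits. In MN1VP16 against Gr1Mac the medians were 0.42 for the mitochondrial ribosome, 0.80 for the cytosolic ribosome and 0.17 for oxidative phosphorylation. The counts called higher were 3 of 76, 8 of 42 and 1 of 79, against 3.66% of all genes. In MN1VP16 against MN1 the medians were -0.45, -0.32 and -0.27 in the same order, with 1, 1 and 0 genes called lower. Of all genes 2.7% were called lower. The mitochondrial ribosome thus lay between the other families in both comparisons with Gr1Mac; these differences between families were not tested. Gr1Mac array 1 exceeded array 2 for 76 of 76, 39 of 42 and 66 of 79 genes of the 3 families.

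The genes outside the family whose values ran most like the members' mean were taken by Pearson's r over the 6 arrays, as a description. They were Ndufv2, a subunit of respiratory complex I (r = 0.999), Gadd45gip1 (0.999), 3110040N11Rik (0.999), the mRNA export factor Nxf1 (0.997) and the corepressor Bcor (0.997). Ndufv2 had log2 values of 11.31 and 11.41 in MN1, of 11.08 and 10.96 in MN1VP16, and of 10.86 and 10.32 in Gr1Mac. Within the family, 58 of 76 members had an r above 0.9 with the mean of the others, and Mrpl33, Mrps21 and Mrpl14 had an r below 0. The 6 arrays share group differences, and with 18193 genes some high values are found in any case, so r orders the genes and no more.

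Where a gene had several probe sets, the dimmer ones mostly showed less. Of the 42 members with more than 1 probe set, 0 had probe sets called in opposite directions in any of the 3 comparisons. In MN1 against Gr1Mac, both the chosen and a further probe set were called in 21 pairs of 13 genes, the chosen one alone in 29 pairs of 19 genes and the other alone in 6 pairs of 6 genes. For Mrps6 both sets rose, by 3.81 on the chosen set and by 2.04 on the other, whose mean was 6.08. For Mrpl52 the chosen probe set, with a mean of 9.77, rose by 2.72, while the other, with a mean of 4.08, differed by 0.26. Its remaining 2 sets rose by 2.66 and 2.69. For Mrpl38 the chosen set had a mean of 7.42, while a set with a mean of 4.84 differed by -0.08. For Mrps5 the chosen set had a mean of 7.502 and rose by 2.18, while another with a mean of 6.55 differed by 0.07, so this gene's rise rests on a single probe set. Mrpl39 had a chosen set with a mean of 10.84 that rose by 1.18 and a second, bright at 9.19, that differed by 0.49 without a call.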

How the data were processed

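The values used are those of the deposited table, log2 expression per probe set, for which the submitters' processing notes name RMA; its version and the genome build are not given in the sources used here. The method removes background, makes array distributions alike by quantiles and combines probes, which shrinks differences of dim genes and hides changes in RNA content per cell. TRIZOL extraction and 3' IVT labelling were used, per the labels' protocols. Of 45037 ordinary probe sets, 34945 named 1 gene, 932 several and 9160 none in GEO's platform annotation; 34741 matched RefSeq by gene number and 0 symbols changed. No scanner intensities or detection calls were used here, and the number of arrays limits the precision.

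All 18193 genes on the 6 arrays went into limma 3.58.1 (R 4.3.3; lmFit, eBayes), with group as the term (3 residual and 3.03 prior degrees of freedom). P-values were adjusted by Benjamini-Hochberg over all genes, with a call at 0.05, and the fit was tested on simulated data. With 2 arrays a group no exact permutation test can reach 0.05. Named genes were the 8 largest called differences in each direction, the 5 brightest and 5 dimmest members, the members whose name or place is unusual, the 5 outside genes most alike, the 2 largest calls per list, and members whose probe sets disagreed; others named for a role or as an exception were chosen after their values were seen. Where the dimmer group averaged at most 5.84, the fold is a lower bound against the mean of the higher of 5.84 and each array's reading. That bound is no confidence limit, as it leaves out the spread between arrays. Members, lists and rules were chosen with earlier results of these data known. The NRF1 and YY1 motifs were shortened by a letter after their longer forms had been counted. Alternatives covered probe sets, dim genes, scaling, the samples and variance model of the fit, blocks and each array left out.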

Additional observations from a re-analysis of the deposited data

How the results depend on the processing

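The median differences over the members kept their sign under every alternative run, except MN1VP16 minus MN1 with the sex pattern as a block, which gave 0.28. That block takes the sex difference from the 2 Gr1Mac arrays, where all 76 members were higher on array 1 with a median gap of 0.70. Whether sex or another difference between those arrays sets that gap was not tested. In MN1 minus Gr1Mac, the 37 members called higher became 3 with the spike pattern as a block, and ranged from 9 to 60 with 1 array left out. The 1 called lower became 2 with centred arrays and ranged from 0 to 1 with 1 array left out. In MN1VP16 minus Gr1Mac, the 3 called higher became 1 with the mean of a gene's probe sets, 5 without the dimmest 40% of genes, 9 with repeated quantile normalization, 5 with centred arrays, 0 with the 2 groups only, 5 with a trended and robust variance, 22 with the sex pattern block and 0 with the spike pattern block. They ranged from 0 to 22 with 1 array left out, and 1 member was called lower with centred arrays. In MN1VP16 minus MN1, the 1 called lower became 0 with the mean of probe sets, with probe sets ending in _x_at, _s_at and _a_at removed, with the replicate block, with the sex pattern block and with the spike pattern block. It became 2 with the 2 groups only and 0 in each fit that left out 1 array. Median differences with 1 array left out ranged from 0.52 to 1.2, from 0.08 to 0.78 and from -0.53 to -0.36 in the 3 comparisons. The replicate numbers are not stated to pair the arrays. Deviations of same-numbered arrays correlated at -0.046, -0.049 and 0.080 between groups, so no shared shift was seen. This cannot exclude that same-numbered arrays shared a donor or a day. With the replicate block 33, 2 and 0 members were called higher. Fits without an array leave a lone array that is assumed to vary like the other groups. They also change how many of all genes are called, so their counts do not single out the family. The sex and spike blocks repeat such fits. The exceptions are the spike block in MN1 minus Gr1Mac and the sex block in MN1VP16 minus MN1.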

Other observations

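Probe sets that name a family gene together with another gene were outside the tests. The brighter of the 2 for Mrpl30, which also names Gm6238, had log2 values of 10.25 and 10.63 in MN1, of 10.18 and 9.92 in MN1VP16, and of 10.16 and 9.37 in Gr1Mac. The set for Mrpl53, shared with Ccdc142, had 8.76 and 9.097 for MN1, 8.61 and 8.75 for MN1VP16, and 9.07 and 8.596 for Gr1Mac, so the Gr1Mac range overlapped both other groups. A set naming Mrps34 and the neighbouring gene Nme3 had 8.03 and 8.26 for MN1, 8.07 and 7.79 for MN1VP16, and 8.998 and 7.68 for Gr1Mac. The dimmer set for Mrpl30 had 5.93 and 5.98 for MN1, 6.16 and 5.73 for MN1VP16, and 6.4 and 6.61 for Gr1Mac, so both Gr1Mac values were the highest. Gr1Mac array 1 was higher than array 2 on the first 3 of these sets, as for the 76 tested members, and lower on the dimmer Mrpl30 set.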
